A study of Mus musculus with 6 samples.

Results

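The genes described here are 31 components of the autophagy machinery of the mouse, taken from a list of gene symbols and not from measured values. Every probe set of the Affymetrix arrays whose annotated symbol was on that list was used. These were 73 probe sets for 30 of the 31 genes, among 18193 genes named in the annotation table. Optn, which encodes the cargo receptor optineurin, is named by none of them and was not analysed here. Of the 30 measured genes, 29 were bright enough to be tested among 10960 genes in all. The other was Atg10, whose product is the E2-like enzyme that joins ATG12 to ATG5. Its signals were between 2.9 and 30.1 on the 6 arrays, and its mean log2 level of 4.84 lay under the limit of 5.9 used for testing.

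The samples were peripheral blood neutrophils of 2 genotypes, wild type and phd3 null, both on a C57 background. Negative magnetic selection yielded cells of single mice, which were kept for 4 h at 3% oxygen before RNA extraction, the same hypoxic condition for every sample by the labels. There were 3 arrays for each genotype, each from 1 mouse, and the sample numbers 1 to 3 were shared between the genotypes and treated as pairs. The phd3 gene, now named Egln3, encodes PHD3, which uses oxygen to hydroxylate prolines and belongs to the enzymes that target hypoxia-inducible factor (HIF) for breakdown. The age and sex of the mice and the form of the null allele are not given in the sources used here. Normoxic samples were not analysed here, and each difference is one between genotypes within hypoxia.

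Autophagy encloses cytoplasm, organelles or microbes in a double membrane that fuses with the lysosome. A kinase complex around ULK1 starts the process, a class III phosphatidylinositol 3-kinase built on beclin 1 marks the membrane with PI3P, and ATG9 and ATG2 supply it with lipid. Ubiquitin-like conjugation enzymes then attach the ATG8 proteins, LC3 and the GABARAPs, to the growing membrane, where receptors such as p62 dock their cargo. In neutrophils autophagy is known for its parts in granulocyte maturation, in the handling of ingested microbes and in energy supply, and hypoxia is a known inducer of it in many cells.

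Egln3 itself gave 87.2, 29.6 and 73.5 in phd3 null samples 1 to 3, far under the wild-type signals of 2088, 1733.9 and 327, with no overlap. The neutrophil list of S100a8, S100a9 and other markers had 6 of 8 genes measured, all of them past the limit. Its summed signal was 38581.8, 48730.3 and 24860.7 in phd3 null samples 1 to 3, compared with 54388.3, 45476 and 41544.5 in wild type, the lowest of each genotype being sample 3. Most of that sum came from S100a8 and S100a9. Cxcr2, the neutrophil chemokine receptor gene, was at 25.6 and 227 in sample 3 of phd3 null and wild type and between 558.9 and 978.9 on the other arrays. Csf3r and Mmp8 were also lowest in sample 3 of each genotype, but not every marker was. In wild-type samples 1 to 3 Mmp9 was at 389.7, 254.3 and 340.8, and S100a9 at 24367.2, 19936.2 and 20746. Markers of other blood cells were not at 0. The summed signal of 3 B cell markers was 2602.7 and 1979.4 in phd3 null and wild-type sample 3 and between 114.8 and 378.3 in the other 4 samples. The summed signal of 4 natural killer cell markers was 359.7, 2255.6 and 1730.2 for phd3 null mice 1 to 3, compared with 1155.2, 5124.5 and 2513.3 for wild type, lower in phd3 null in every pair. For 3 monocyte markers, mostly Csf1r, the sum was 4008 and 4795.1 in sample 3 of phd3 null and wild type and from 9923.2 to 12090.6 in the other 4. For 3 erythroid and platelet markers, mostly Alas2, it ran from 799.2 to 6683.6 in phd3 null and from 2606.5 to 5712.9 in wild type. For 3 T cell markers it ran from 79.5 to 358.7 and from 45.4 to 265.3, and for 4 eosinophil and basophil markers, none past the limit, from 59.5 to 109.1 and from 61.9 to 227.8. The part of these cells in the values below was not tested, and in such bulk samples fewer cells of a type and less RNA per cell cannot be told apart.

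No autophagy gene passed the test between genotypes. Signals were compared on the scale log2(signal + 16) with limma across all 10960 genes, and a gene was called at a Benjamini-Hochberg adjusted p under 0.05. Among the 29 members 0 were called, against 0 of 10960 genes (0.0%), and the adjusted p was 0.9996 for each. With the sample number as a block, 0 members were called as well, against 2 genes in all (0.0182%), and their adjusted p ran from 0.829 to 0.9994. At an unadjusted p under 0.05 limma counted 0 members without the block, against 1.74% of all genes. With the block it counted 3 members, or 10.3%, against 5.62% of all genes. These 3 were Sqstm1, Atg7 and Atg2a, all lower in phd3 null.

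Across the members the differences were small and ran both ways. Of the 29 members 13 were higher and 16 lower in phd3 null, with a median log2 difference of -0.03, against -0.01 over all genes tested. The median size of the difference, whatever its sign, was 0.17 for members and 0.27 for all genes, and 23 of 29 members differed by less than 0.4. The arrays leave wide margins around these values. The 95% confidence interval of a member's difference reached from 0.67 to 1.37 log2 units to either side, with a median of 0.8. Over all genes that median was 0.98. The median margin of the members was thus narrower, although some of them, such as Atg9a and Atg2a, had margins wider than 0.98. With 3 arrays per genotype, a member's difference smaller than its margin could not be told from 0, even before adjustment over all genes. The adjusted test was stricter still. Egln3, the targeted gene, had a log2 difference of -3.85 and was not called without the block (limma adjusted p = 0.9996). With the block it was called (limma adjusted p = 0.0014). The missing calls among members do not show that the genotypes are alike.

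**Figure D1:**
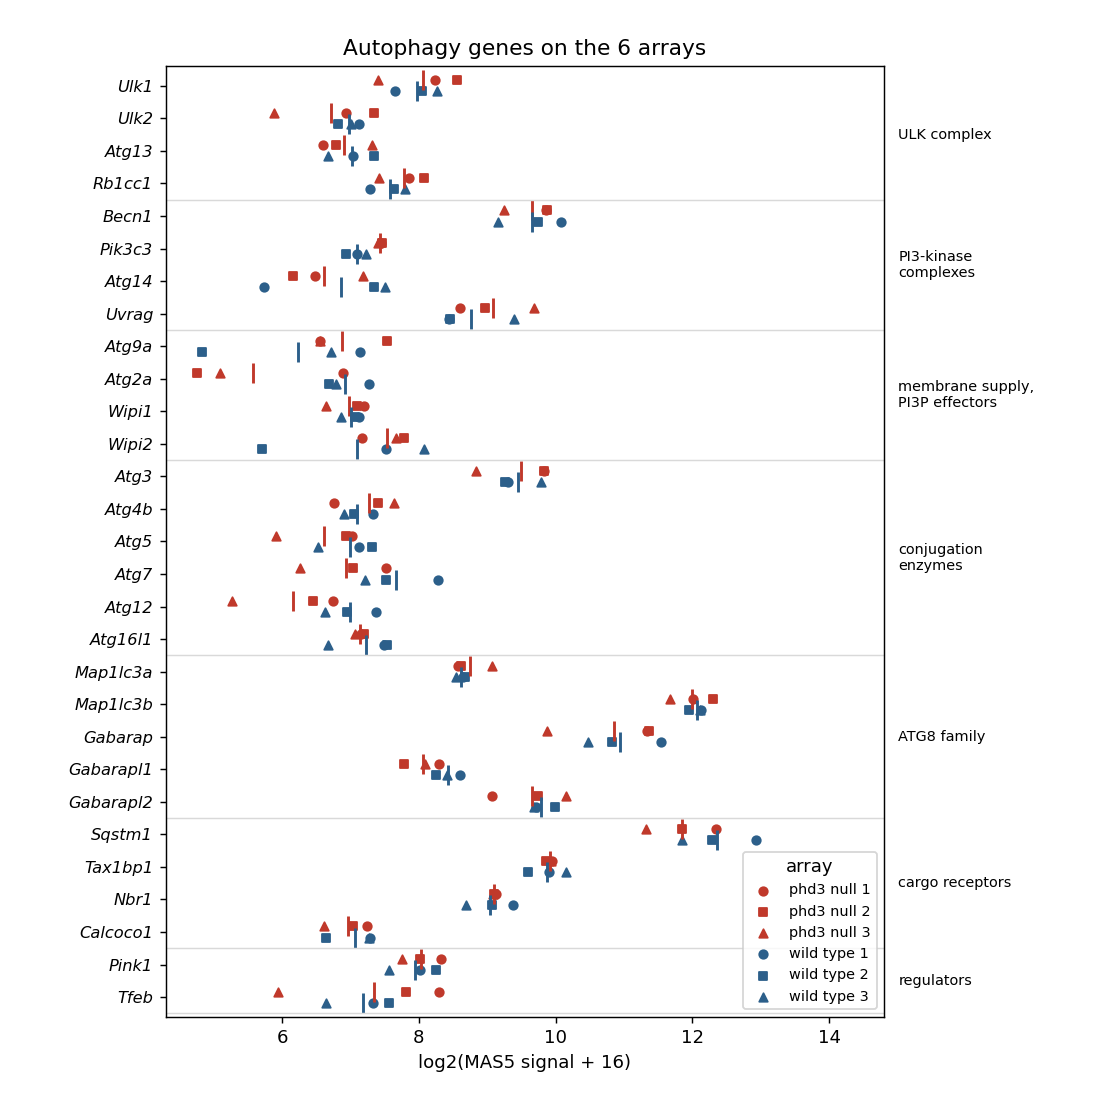
Signals of the 29 tested autophagy genes on the 6 arrays, as log2(MAS5 signal + 16) on the x axis, by role in the pathway; symbols mark the sample number, red points are phd3 null, blue points wild type, and vertical ticks the means of 3 arrays. The colours overlap for every gene other than Pik3c3, and replicate 3 of phd3 null lies at the low end for Ulk2, Atg5, Atg12, Gabarap and Tfeb.

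**Figure D2:**
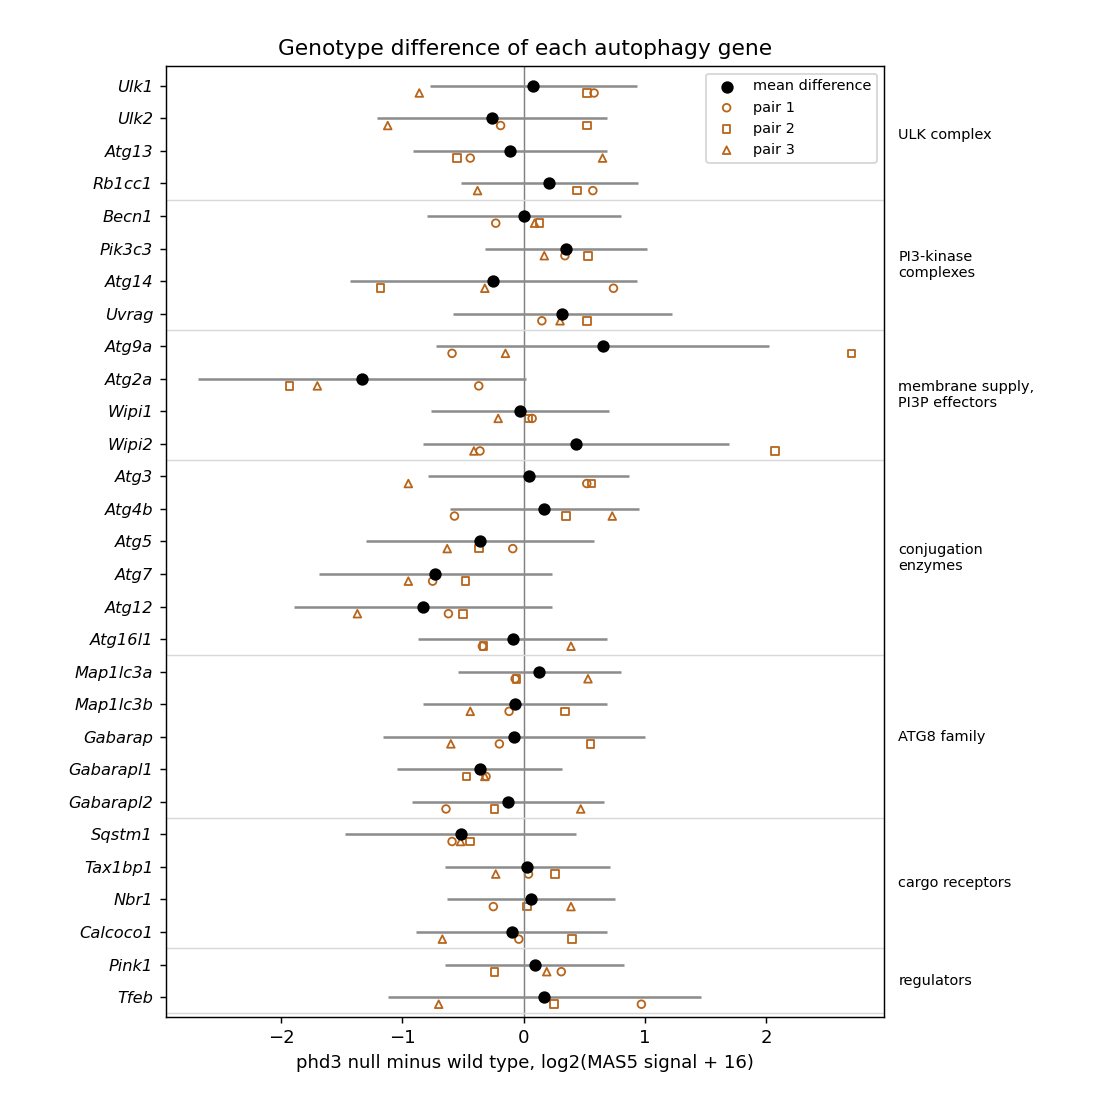
Difference between genotypes for each gene, phd3 null minus wild type on the log2(MAS5 signal + 16) scale; black points are means over 3 arrays per genotype, grey bars their 95% confidence intervals from limma, and open symbols the same-numbered pairs. Every interval includes 0, and the widest belong to Atg9a and Atg2a.

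Direction was the same in all 3 pairs for 8 members. Lower in phd3 null in every pair were 6 of 29 members, or 20.7%, against 13.0% of all genes. They were Sqstm1, Gabarapl1, Atg2a, Atg5, Atg7 and Atg12. Higher in every pair were 2 of 29, or 6.9%, against 12.6% of all genes, and both, Pik3c3 and Uvrag, belong to the class III PI3-kinase complexes. The signals of the genotypes did not overlap for 1 member, Pik3c3, which was higher, as were 3.9% of all genes, and for 0 members that were lower, against 3.02%.

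**Figure D3:**
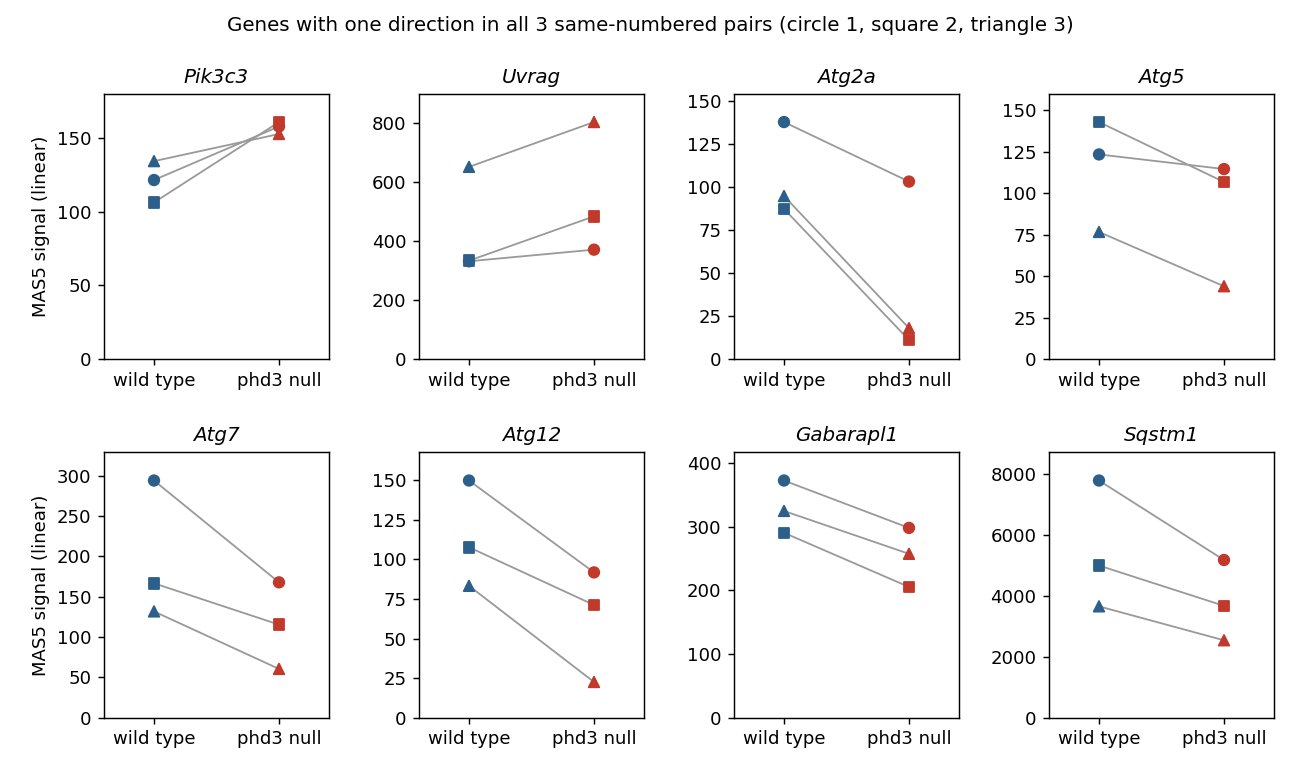
MAS5 signals on a linear axis for the 8 genes whose pairs all ran in 1 direction, with a line for each same-numbered pair from wild type (blue) to phd3 null (red). No line of Sqstm1 crosses another, nor does any of Gabarapl1, while for Atg2a the line of pair 1 starts and ends above those of pairs 2 and 3.

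The starts of these genes were looked up for 3 short motifs, because the targeted enzyme acts on HIF and several autophagy genes are known targets of TFEB or NRF2. The motifs were the HIF core (ACGTG or GCGTG), the E-box (CACGTG), whose matches also hold the HIF core, and the core of the antioxidant response element (TGACNNNGC), all on both strands in the 250 bases before the start. RefSeq promoters of build GRCm38.p6 were matched by symbol for 25 of the 31 members, with 29 promoters. Those of 4 of the 6 genes lower in every pair are shown, with the HIF core and the E-box in capitals. They are Sqstm1 (chr11:50210821-50211070, minus strand), Atg2a (chr19:6241418-6241667, plus strand), Atg5 (chr10:44268089-44268338, plus strand) and Atg7 (chr6:114670846-114671095, plus strand), each 5′ to 3′ toward the start.
Sqstm1: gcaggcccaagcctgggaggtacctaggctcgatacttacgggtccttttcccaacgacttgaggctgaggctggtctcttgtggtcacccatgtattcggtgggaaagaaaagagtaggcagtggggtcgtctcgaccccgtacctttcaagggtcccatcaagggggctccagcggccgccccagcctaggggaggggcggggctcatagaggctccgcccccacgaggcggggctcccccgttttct
Atg2a: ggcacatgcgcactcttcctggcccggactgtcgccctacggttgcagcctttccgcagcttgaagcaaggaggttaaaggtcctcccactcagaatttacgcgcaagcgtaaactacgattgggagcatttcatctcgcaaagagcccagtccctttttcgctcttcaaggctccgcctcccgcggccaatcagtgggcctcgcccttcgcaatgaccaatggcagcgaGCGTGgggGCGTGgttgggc
Atg5: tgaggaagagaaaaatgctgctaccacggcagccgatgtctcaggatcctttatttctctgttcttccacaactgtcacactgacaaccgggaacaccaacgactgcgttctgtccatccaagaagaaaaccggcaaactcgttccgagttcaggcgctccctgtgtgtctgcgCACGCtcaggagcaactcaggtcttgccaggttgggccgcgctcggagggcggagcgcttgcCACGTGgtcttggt
Atg7: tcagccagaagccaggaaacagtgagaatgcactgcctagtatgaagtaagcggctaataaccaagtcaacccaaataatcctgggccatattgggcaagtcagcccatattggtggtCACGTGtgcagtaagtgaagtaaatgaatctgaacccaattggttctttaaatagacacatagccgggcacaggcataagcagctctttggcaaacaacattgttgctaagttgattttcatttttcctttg
The HIF core was present 0 times before Sqstm1, 2 times before Atg2a, 3 times before Atg5 and 2 times before Atg7, counting both strands. The single E-boxes of Atg5 and Atg7 make up 2 of those matches in each gene, since the E-box reads the same on both strands. The fifth of the 6 genes with a promoter here, Gabarapl1, held none of the 3 motifs. Over the members 24 of 29 promoters (82.8%) held the HIF core, against 53.2% of 11291 promoters of the genes tested and 38.6% of all 32851. The E-box was in 10.3% of member promoters, against 8.02% of promoters of tested genes and 6.02% of all. The antioxidant core was in 10.3% of them, against 11.7% and 10.2%. The promoters were not matched for base composition, and the 29 include those of Atg10 and Optn, which were not tested. A match is a run of letters and not a site of binding, and the members with a match ran in both directions between genotypes.

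The initiation genes ran in both directions. They number 12, all tested, with 6 higher, 6 lower and a median log2 difference of 0.04, and the pair medians of -0.06, 0.48 and -0.27 differed in sign. In the ULK complex no gene kept its direction in all pairs by the probe set used. Ulk1, the kinase that starts autophagy, was at 284.5, 361.7 and 153.2 in phd3 null samples 1 to 3, compared with 185, 247.3 and 291 in wild type. It was higher in phd3 null in pairs 1 and 2 and lower in pair 3, and its mean log2 difference was 0.08 (SE 0.38). A dimmer Ulk1 probe set was higher in phd3 null in every pair, by 0.06, 1.25 and 0.98, with a mean of 0.76 (SE 0.56). Its paralog Ulk2 differed by -0.26 (SE 0.42), Atg13, the regulatory subunit, by -0.11 (SE 0.36) and Rb1cc1, which encodes the scaffold FIP200, by 0.21 (SE 0.33). The other Rb1cc1 probe set past the limit went the other way, by -0.64 (SE 0.38).

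Of the PI3-kinase genes, Pik3c3 encodes the catalytic subunit VPS34. Its signals were 157.7, 160.7 and 152.6 in phd3 null and 121.4, 106.2 and 134.2 in wild type. All 3 phd3 null values lay above all wild-type values, with means of 157 ± 4.10 and 120.6 ± 14.0 (SD, n = 3), for a log2 difference of 0.35 (SE 0.30, limma adjusted p = 0.9996). Uvrag, a beclin 1 partner with a role in membrane maturation, had 371.4, 484.4 and 804.3 in phd3 null and 332, 334 and 652.2 in wild type. The third sample was the highest in both genotypes, and within pairs phd3 null was above wild type by 0.15, 0.52 and 0.30 log2 units. Its mean difference was 0.32 (SE 0.40). Becn1, which encodes beclin 1 itself, had 909.1, 917.4 and 593 in phd3 null and 1066.8, 836.6 and 555.9 in wild type, with the third sample lowest in both. Its means of 806.5 ± 185 and 819.8 ± 256 (SD, n = 3) gave a log2 difference of -0.00 (SE 0.36, 95% interval -0.80 to 0.80). Atg14, the subunit that directs the kinase to the forming autophagosome, differed by -0.25 (SE 0.52), with pair 1 higher and pairs 2 and 3 lower.

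The genes for membrane supply and PI3P reading had the widest spread. Atg2a, whose product transfers lipid to the growing membrane, was at 103.2, 11.1 and 18 in phd3 null, compared with 137.8, 87.3 and 94.8 in wild type. Samples 2 and 3 of phd3 null were low, while sample 1 lay within the range of wild type. The log2 difference was -1.33 (SE 0.60, 95% interval -2.69 to 0.02), from -0.37 in pair 1 to -1.93 in pair 2. It was -1.87 with a pseudocount of 1 and -0.75 with a pseudocount of 64, since signals this low depend on the pseudocount. Atg9a, which encodes the lipid scramblase carried by ATG9 vesicles, and the PI3P effector Wipi2 were both low in wild-type sample 2. Atg9a was at 12.5 there against 88.7 and 125.3 in the other wild-type samples, and Wipi2 at 36.3 against 168.1 and 253.8. Both were higher in phd3 null in pair 2, by 2.70 and 2.07, and lower in pairs 1 and 3. Without wild-type sample 2 the mean differences of Atg9a and Wipi2, 0.65 (SE 0.61) and 0.43 (SE 0.56), became -0.04 and -0.26. Wipi1 differed by -0.03 (SE 0.33). The other Wipi1 probe set past the limit differed by -0.71 (SE 0.49) and was lower in phd3 null in every pair.

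Most conjugation genes had a lower mean in phd3 null, within the spread between arrays. They number 12, of which 11 were tested, with 3 higher and 8 lower and a median log2 difference of -0.09. The pair medians were -0.31, -0.24 and -0.44, where all genes had medians between -0.01 and 0 in each pair. Lower in every pair were 4 of the 11 genes, or 36.4%, against the 13.0% of all genes given above, and 0 were higher in every pair. The median was -0.23 without both arrays of pair 3, -0.32 without wild-type sample 3 and -0.03 without phd3 null sample 3.

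Among the enzymes, Atg7, which encodes the E1-like enzyme that activates both ATG12 and the ATG8 proteins, was at 167.9, 115.4 and 60.4 in phd3 null, compared with 294.3, 166.7 and 131.8 in wild type. Wild type was higher in each pair, while phd3 null sample 1 lay above wild-type samples 2 and 3. The means were 114.6 ± 53.8 and 197.6 ± 85.5 (SD, n = 3), with a log2 difference of -0.73 (SE 0.43, and 0.31 with the block). The other probe sets of Atg7 past the limit differed by -0.11 and -0.28. Atg12, the ubiquitin-like modifier, was at 91.8, 71.2 and 22.5 in phd3 null, compared with 149.9, 107.7 and 83.3 in wild type. Again phd3 null was lower within each pair, and sample 3 was the lowest of its genotype. The log2 difference was -0.83 (SE 0.47), while the other probe sets of Atg12 gave -0.61 and 0.19. Atg5, to which ATG12 is attached, was at 114.5, 106.7 and 43.9 in phd3 null, compared with 123.3, 142.8 and 76.6 in wild type. The difference was small in pair 1 (-0.09) and larger in pairs 2 and 3 (-0.37 and -0.63), with a mean of -0.36 (SE 0.42). The other probe sets of Atg5 past the limit differed by -0.05 and -0.29. The one with -0.05 was higher in phd3 null in pairs 1 and 2, by 0.36 and 0.19, and lower in pair 3, by -0.72. Atg16l1, which joins the ATG12 and ATG5 conjugate into an E3-like complex, differed by -0.09 (SE 0.35). The E2-like enzyme gene Atg3 differed by 0.04 (SE 0.37) and the ATG8-processing protease gene Atg4b by 0.17 (SE 0.35). Both of these changed sign between pairs. The other Atg4b probe set past the limit went the other way, by -0.86 (SE 0.54).

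By the probe sets used, the differences of the ATG8 genes ran from -0.36 to 0.13 log2 units, and every 95% interval included 0. Map1lc3b, which encodes LC3B, the usual marker of autophagosomes, was at 4118.2, 5015.2 and 3258 in phd3 null, compared with 4466.8, 3953.2 and 4411.4 in wild type. Wild type lay inside the range of phd3 null, with means of 4130 ± 879 and 4277 ± 282 (SD, n = 3), for a log2 difference of -0.07 (SE 0.34, 95% interval -0.83 to 0.69). Its other probe sets past the limit differed by -0.02 and 0.16. Gabarap was at 2580.5, 2627.7 and 918.2 in phd3 null, compared with 2957.3, 1789.5 and 1404.6 in wild type, lowest in sample 3 of both genotypes, and differed by -0.08 (SE 0.48). Gabarapl1, a GABARAP paralog, was at 297.8, 205.1 and 257.1 in phd3 null, compared with 372.2, 290.1 and 324.4 in wild type. The 3 pairs differed by nearly the same amount, -0.31, -0.47 and -0.32, although the genotypes overlapped, and the mean was -0.36 (SE 0.30). Its other probe set went the same way by -0.70 (SE 0.33), with means of 153.1 ± 32.7 and 261.7 ± 71.9 (SD, n = 3) and no overlap. Gabarapl2, which encodes GATE-16, and Map1lc3a, which encodes LC3A, differed by -0.13 (SE 0.35) and 0.13 (SE 0.30). The probe set used for Map1lc3a is of a type whose probes can match other sequences, and the other one for that gene was under the limit.

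Among the cargo receptors, Sqstm1 was the gene with all pairs in 1 direction. It encodes p62, which binds ubiquitinated cargo and LC3, is itself degraded by autophagy and is a known transcriptional target of NRF2. Its signals were 5180.2, 3674 and 2541.1 in phd3 null and 7793, 4998 and 3656.4 in wild type. The order of the 3 samples was the same in both genotypes and the genotypes overlapped, but in each pair phd3 null was lower by a similar amount, -0.59, -0.44 and -0.52. The means were 3798 ± 1320 and 5482 ± 2110 (SD, n = 3), a log2 difference of -0.52 (SE 0.42, and 0.22 with the block). Neither fit called it (limma adjusted p = 0.9996, and 0.857 with the block). The other probe set of Sqstm1 differed by -0.33 (SE 0.46) and was higher by 0.06 in pair 3.

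By the probe sets used, the other receptors differed by 0.10 or less in size. Tax1bp1, which encodes a receptor for ubiquitinated bacteria and protein aggregates, was at 970.8, 907.9 and 956.2 in phd3 null, compared with 941.2, 755.4 and 1120.7 in wild type. The narrow range of phd3 null lay inside that of wild type, with a difference of 0.03 (SE 0.30, 95% interval -0.65 to 0.70). Nbr1, a p62-like receptor gene, differed by 0.06 (SE 0.31) and Calcoco1, of the family of NDP52, by -0.10 (SE 0.35). Their other probe sets past the limit differed by 0.26 for Nbr1 and -0.12 for Calcoco1, and those of Tax1bp1 by -0.22, 0.16 and 0.23. Over the 4 tested receptors 2 were higher and 2 lower. Their median was -0.04, with pair medians of -0.14, 0.15 and -0.37.

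Set side by side, the median log2 differences were 0.04 for initiation, -0.09 for conjugation and -0.04 for the cargo receptors, against -0.01 for all genes. Within each pair the conjugation median was the lowest of the 3, at -0.31, -0.24 and -0.44, where initiation had -0.06, 0.48 and -0.27 and the receptors -0.14, 0.15 and -0.37. The SD over the pairs was 0.38 for initiation, 0.10 for conjugation and 0.26 for the receptors. The differences between the role groups were not tested. The share of genes lower in every pair was 1 of 12 in initiation, 4 of 11 in conjugation and 1 of 4 in the cargo receptors.

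The regulators outside these groups were Pink1 and Tfeb. Pink1, the kinase gene that marks damaged mitochondria, differed by 0.09 (SE 0.33), from means of 249.1 ± 53.4 for phd3 null and 234.9 ± 57.8 for wild type (SD, n = 3). Its other probe set was higher in phd3 null in every pair, by 0.32, 0.36 and 0.48, so the probe sets of Pink1 disagree on the pattern. Tfeb, the transcription factor gene that drives lysosomal and autophagy genes, was at 298.1, 207.9 and 45.5 in phd3 null, compared with 144.6, 172.8 and 83.6 in wild type. It was lowest in sample 3 of both genotypes, higher in phd3 null in pairs 1 and 2 and lower in pair 3, with a mean of 0.17 (SE 0.58).

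Sample 3 of both genotypes lay outside the other arrays for several members. The sample 3 arrays were the least like the rest. Their median correlation with other arrays was 0.739 for phd3 null and 0.788 for wild type, where the remaining arrays had 0.838 to 0.866. Both arrays of sample 3 lay below all other arrays for 8 of 29 members, or 27.6%, against 16.9% of all genes. These were Becn1, Wipi1, Atg5, Atg16l1, Gabarap, Sqstm1, Pink1 and Tfeb. Both lay above all others for 1 of 29 members, Uvrag, or 3.45%, against 18.5% of all genes. Relative to the mean of samples 1 and 2, Tfeb was shifted by -2.11 in phd3 null and -0.81 in wild type, Gabarap by -1.49 and -0.71, and Sqstm1 by -0.78 and -0.77. Uvrag was shifted by 0.90 and 0.94. These are the arrays with the higher B cell and lower monocyte signal given above, and with the lowest neutrophil sum of each genotype. The known HIF targets Ddit4 and, in wild type, Egln3 were low there too, while no list of HIF targets was scored. Ddit4 was at 324.8 and 238 in sample 3 of phd3 null and wild type and between 615.4 and 1252.6 on the other arrays, and Egln3 in wild type was at 327 against 2088 and 1733.9. The part of cell makeup and of the oxygen treatment in the shift was not tested.

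**Figure D4:**
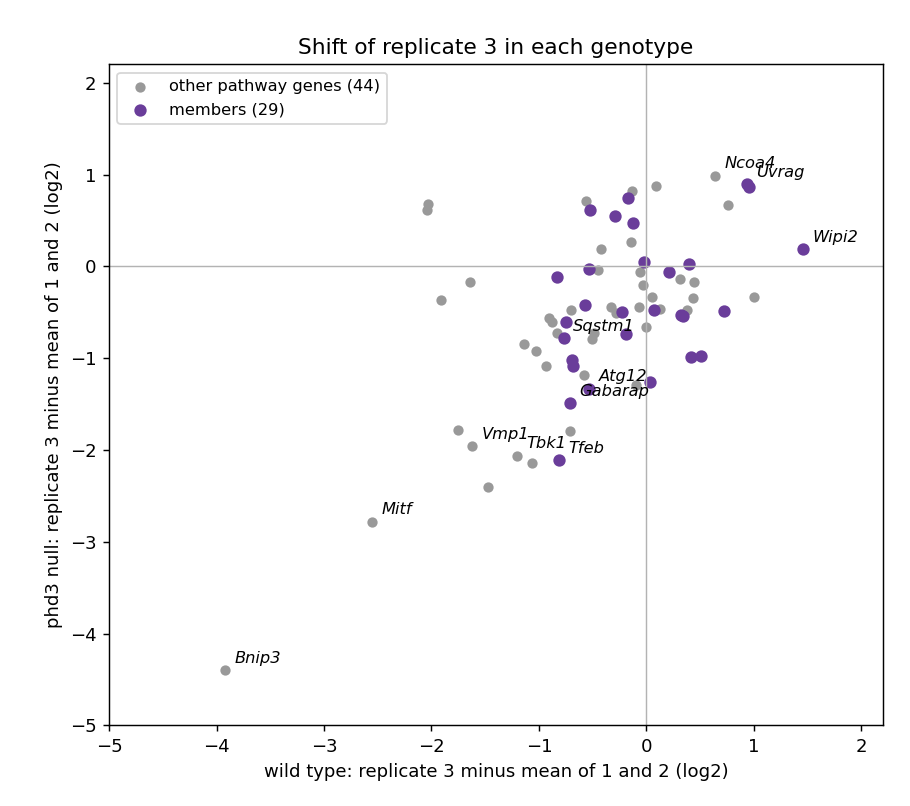
Shift of sample 3 relative to the mean of samples 1 and 2 on the log2(MAS5 signal + 16) scale, wild type on the x axis and phd3 null on the y axis; purple points are the 29 tested members and grey points 44 other pathway genes. Bnip3 lies farthest from 0 (-3.92 and -4.40), and Tfeb is the lowest member on the phd3 null axis (-2.11).

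Of 52 other genes of the pathway, 50 were named on the array and 44 were tested, and 0 of them were called in either fit. Of the 44, 25 were higher and 19 lower in phd3 null, with a median of 0.08. In every pair 5 were higher (11.4%) and 4 lower (9.09%), which is below the shares of 12.6% and 13.0% over all genes. Both arrays of sample 3 lay below the other 4 for 18 of 44 genes (40.9%) and above them for 2. The mitophagy receptor gene Bnip3, a HIF target, was at 4396.5, 4817.4 and 202.3 in phd3 null, compared with 3949.7, 2575.4 and 195.7 in wild type. The third sample was low in both genotypes, and phd3 null was above wild type by 0.15, 0.90 and 0.04 in the pairs, with a mean of 0.37 (SE 1.31, and 0.22 with the block). Fundc1, another mitophagy receptor gene, differed by 0.01 (SE 0.35).

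The largest differences among the other pathway genes with all pairs in 1 direction were those of Stx17, Akt1s1, Rheb and Mlst8. Stx17 encodes the SNARE that fuses autophagosomes with lysosomes and was at 156.7, 200.9 and 133.9 in phd3 null against 67.5, 157.9 and 16 in wild type. The gap was widest in pair 3, where wild type was at 16, and the difference was 1.20 (SE 0.56). Rheb encodes the GTPase that activates mTORC1, the kinase complex that holds ULK1 in check, and was at 1020.3, 754 and 592 in phd3 null against 1584.3, 1182.2 and 722.8 in wild type. The genotypes overlapped, and each pair was lower in phd3 null. The difference was -0.52 (SE 0.38). The mTORC1 subunit genes Akt1s1 and Mlst8 differed by -0.88 (SE 0.44) and 0.51 (SE 0.34), and neither pair of groups overlapped. With Wdr45b, which was lower, the groups did not overlap for 3 of the 44 genes (6.82%), close to the 6.92% of all genes. The gene for the kinase itself, Mtor, differed by -0.13 (SE 0.36). None of these passed (limma adjusted p = 0.9996 for each, and from 0.787 with the block).

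Where a member had several probe sets past the limit, they often differed. By the mean difference, 10 of 18 such members had all their probe sets in 1 direction and 8 had them in both. Among the 6 members lower in every pair, all probe sets past the limit had a lower mean for Sqstm1, Gabarapl1, Atg5 and Atg7. Of these, only Gabarapl1 had each probe set past the limit lower in every pair. Atg12 had 1 of 3 higher, and Atg2a had a single probe set. Among members whose pairs differed in sign, some had another probe set past the limit with all pairs in 1 direction. These were Ulk1, Becn1, Map1lc3b and Pink1, all higher, and Wipi1 and Tax1bp1, both lower. Probe sets under the limit were not counted here.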

How the data were processed

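The authors deposited linear signal intensities made with MAS5, as the submitters' processing notes name it, with no version. Of 45101 probe sets, 64 controls were left out, 34945 had 1 gene symbol in the annotation table, 932 had several and 9160 were unnamed here. For a gene with several probe sets, the one of highest mean log2(signal + 16) was used. Genes under the median of the probe sets, 5.9, were not tested, which left 10960. Genotypes were compared two-sided with limma 3.58.1 (R 4.3.3; lmFit, then eBayes with the trend option), with Benjamini-Hochberg adjustment over all genes and no block. Differences are phd3 null minus wild type on the log2(signal + 16) scale, where a dim gene's change comes out too small. The scripts were tested on simulated data.

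Same-numbered samples share a code in the source labels, and their deviations from the group means correlated at 0.292, 0.151 and 0.474, so the numbers were taken as pairs. Different-numbered samples correlated from -0.363 to 0.177, the highest being phd3 null sample 2 with wild-type sample 1, so this measure does not set pairs 1 and 2 apart. The labels do not say what the code marks. The members and lists were chosen with earlier results of these data known, as was the alternative without pair 3. Signals on every array are given for members with all pairs in 1 direction and for the 2 with the highest mean signal in each role group. Those of Ulk1, Atg9a, Wipi2 and Tfeb, the values of Cxcr2, other single neutrophil markers and Ddit4, and the difference of Mtor, were picked after the values were seen. The motifs and the shifts of sample 3 were also chosen after the values were seen. Precision is limited by having 3 arrays per genotype. Detection calls were not used here.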

Additional observations from a re-analysis of the deposited data

How the results depend on the processing

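No member was called under any of the 17 alternatives. Over all genes 0 were called, against 2 with the replicate block that pairs the samples, 1 without both arrays of pair 3, and 0 to 1 when each array was left out in turn (1 without wild-type sample 3). The block changed no call of a member. The median of the conjugation genes was -0.09, -0.23 without pair 3, and from -0.32 to -0.03 with 1 array left out. Atg12, Atg2a, Atg5, Atg7, Gabarapl1, Pik3c3, Rb1cc1, Sqstm1 and Uvrag kept 1 sign in every fit of the single genes, but single arrays moved their size. Most of these fits used the same probe set of a gene, and the other Rb1cc1 probe set past the limit had the opposite sign (-0.64). With 1 array left out the range was -1.13 to -0.39 for Atg12, -1.99 to -0.92 for Atg2a, -0.59 to -0.01 for Atg5, -1.02 to -0.39 for Atg7 and -0.48 to -0.23 for Gabarapl1. It was 0.27 to 0.42 for Pik3c3, 0.06 to 0.39 for Rb1cc1, -0.77 to -0.23 for Sqstm1 and 0.02 to 0.63 for Uvrag. The values nearest 0 of Atg5, Atg7, Atg12 and Uvrag were those without phd3 null sample 3. The other 20 tested members did not keep 1 sign, and the cause was not tested. Quantile normalization gave 0.07 for Becn1, 0.02 for Gabarap and 0.08 for Map1lc3b. Median scaling gave -0.01 for Atg3, -0.00 for Nbr1 and -0.03 for Tax1bp1. The mean of a gene's probe sets gave 0.00 for Atg13, 0.03 for Atg16l1, -0.15 for Atg4b, 0.12 for Becn1, 0.25 for Gabarapl2, -0.11 for Map1lc3a, 0.02 for Map1lc3b, 0.13 for Wipi1 and -0.08 for Wipi2. Array quality weights gave 0.05 for Becn1, 0.08 for Calcoco1, 0.18 for Gabarap, 0.08 for Map1lc3b, 0.07 for Ulk2 and 0.03 for Wipi1. Without pair 3 the values were -0.11 for Atg4b, 0.18 for Calcoco1, 0.18 for Gabarap, -0.07 for Map1lc3a, 0.11 for Map1lc3b, -0.11 for Nbr1, 0.17 for Ulk2 and 0.05 for Wipi1. With 1 array left out the range was -0.32 to 0.05 for Atg13, -0.82 to 0.07 for Atg14, -0.37 to 0.05 for Atg16l1, -0.12 to 0.37 for Atg3, -0.02 to 0.42 for Atg4b, -0.04 to 1.11 for Atg9a and -0.25 to 0.21 for Becn1. It was -0.32 to 0.07 for Calcoco1, -0.34 to 0.41 for Gabarap, -0.38 to 0.16 for Gabarapl2, -0.03 to 0.22 for Map1lc3a, -0.22 to 0.09 for Map1lc3b, -0.12 to 0.22 for Nbr1 and -0.10 to 0.24 for Pink1. It was -0.12 to 0.16 for Tax1bp1, -0.30 to 0.88 for Tfeb, -0.17 to 0.41 for Ulk1, -0.57 to 0.16 for Ulk2, -0.14 to 0.13 for Wipi1 and -0.26 to 0.92 for Wipi2.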
